A study of Mus musculus with 18 samples.

Results

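Cytosolic ribosomal protein genes were read in the brains of mice lacking Aldh5a1 and of wild-type mice. The array assigned 49 probe sets, of 12488 in all, to a single gene symbol of the numbered Rpl or Rps series or to Rplp0, Rplp1, Rplp2 or Rpsa, pseudogenes left out. These probe sets stand for 35 of the 8252 genes with a probe set of their own. By symbol alone, paralogs included, 17 are counted here to the large ribosomal subunit and 18 to the small one. Probe sets given several symbols, of which 39 included a ribosomal protein, were left out, as were 3 probe sets of ribosomal S6 kinases or pseudogenes. The S6 kinases phosphorylate ribosomal protein S6 and are no part of the ribosome. Among the 35 genes are the paralogs Rps4l, Rpl7l1, Rpl39l and Rps27l, which carry the family's names but are encoded by genes of their own.

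The animals were 3 Aldh5a1-/- mice (knockout, KO; numbers 3363, 3389 and 3403) and 3 wild-type mice (WT; numbers 3405, 3406 and 3396), and hippocampus, cerebellum and cortex of each were hybridised to 1 Affymetrix mouse array per tissue, 18 in all. Aldh5a1 encodes the succinate semialdehyde dehydrogenase of GABA catabolism. The array had 0 probe sets assigned to Aldh5a1, so genotype rests on the labels. Treatment, age, sex and strain are not given in the labels used here. The source label names hippocampus for every array, so the region was taken from title and description, and 9 of 9 measured cerebellar markers were higher in the arrays labelled cerebellum than in either other region. Of the cortical markers, 3 of 8 were measured, and 3 of 3 were lower in cerebellum than in cortex. Of 7 measured hippocampal markers, 6 were higher and 1 lower in hippocampus than in cortex, and the same counts held against cerebellum. Of the 3 cortical markers, 2 were lower in hippocampus than in cortex.

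The cytosolic ribosome is built from ribosomal RNA and a set of proteins, most encoded by 1 active gene each and made in near equal amounts. Their mRNAs begin with a run of pyrimidines, the terminal oligopyrimidine (TOP) motif, through which mTOR signalling sets their translation. In neurons ribosomes lie in the cell body, in dendrites and in axons, where they serve local protein synthesis. Rps19 is a small-subunit protein needed for the maturation of the small subunit, and heterozygous loss of it causes Diamond-Blackfan anaemia in humans.

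Values are the authors' scaled intensity, here called signal, and differences are on the log2 scale with limma's standard error (SE). Only probe sets that exceeded the 40th percentile of the array on 3 or more of the 18 arrays were tested. This kept 34 of the 49 probe sets, for 26 genes (12 large-subunit, 14 small-subunit), among 8382 probe sets in all. The mean signal of the kept probe sets ran from 25.8 to 5103, and 17 of the 34 lay above 1000. The 15 others had mean signals of 2.97 to 32.4, and 9 genes, Rpl32, Rpl35a, Rpl38, Rpl39, Rpl39l, Rps14, Rps15, Rps20 and Rps27l, had no tested probe set at all. These genes are measured too dimly here for a comparison, which says nothing of their abundance.

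By gene, with the brightest probe set taken for each, mean signal over the 18 arrays was highest for Rpl41 (5103), Rps24 (3845), Rps28 (3535), the stalk protein gene Rplp0 (2349) and Rps3a1 (2255). It was lowest for Rps13 (41.5), Rpl7l1 (52.0), Rps29 (74.5), Rps4l (164) and Rpl22 (193). Signals of different probe sets depend on their probes and do not rank transcripts. The Rps24 probe set carries the same source accession as an Rpl7 probe set, so which of these genes it reads is uncertain. Suffixes such as _f_at, _r_at and _s_at mark probe sets with shared or incomplete probes, and 25 of the 34 tested probe sets were free of them. The brightest probe sets of Rpl41, Rps24, Rps28, Rpl7, Rps4l and Rps13 carry such a suffix.

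Rps19 had 1 probe set, at percentile 91.0 of all probe sets by mean signal. The gene lies on chromosome 7 from 24884592 to 24889811 (GRCm38.p6). In cerebellum its signal was 765, 681 and 546 in KO mice 3363, 3389 and 3403 and 383, 408 and 292 in WT mice 3405, 3406 and 3396. In cortex, in the same order of animals, it was 487, 552 and 658 in KO and 394, 452 and 433 in WT. In hippocampus it was 561, 528 and 409 in KO and 424, 371 and 623 in WT. Every KO array thus lay above every WT array in cerebellum and in cortex, whereas the hippocampal groups overlapped, with the highest value of that tissue in WT mouse 3396. Separation of 3 against 3 arrays, here and for genes below, cannot give an exact permutation p under 0.1. Its share over all probe sets was not counted.

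**Figure D1:**
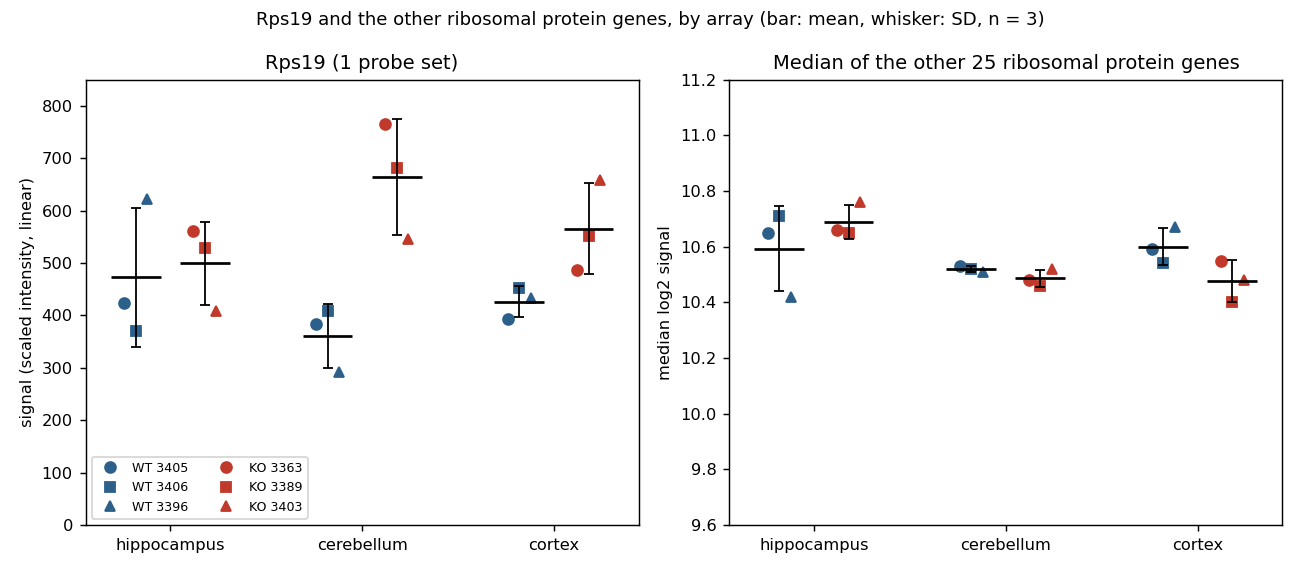
Left, Rps19 signal (scaled intensity, linear axis) on each of the 18 arrays by region, WT in blue and KO in red, with a symbol per animal, the mean as a bar and the SD as a whisker (n = 3). Right, the median log2 signal of the other 25 ribosomal protein genes on the same arrays. The KO cerebellar arrays, from 546 to 765, lie above the WT ones, from 292 to 408, while the medians of the other genes in cerebellum stay between 10.46 and 10.53.

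Averaged over the 3 regions of each animal, Rps19 rose in KO by 0.46 ± 0.07 on the log2 scale (1.38-fold; limma on 3 against 3 animal means, adjusted p = 0.0437). The geometric mean signals per animal were 594, 583 and 528 in KO and 400.0, 409 and 429 in WT, without overlap. Rps19 was the only ribosomal protein probe set of 34 to pass, and 0 passed in the lower direction. Over all 8382 probe sets, 0.179% passed in either direction and 0.0358%, or 3 probe sets, passed as higher in KO. Rps19 had the largest of the 26 genes' differences and lay at percentile 98.2 of all probe sets. By region, its rank among the 26 was 1 in cerebellum, 2 in cortex and 7 in hippocampus (percentiles 99.0, 92.7 and 63.2). It was set against the other genes because earlier results of these data were known, so its rank is a description.

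The call sits close to the threshold. It held under 5 of 13 alternatives, with adjusted p from 0.0364 with a 60th percentile filter to 0.255 with no intensity trend or with no filter. Leaving out KO mouse 3363, 3389 or 3403 gave adjusted p of 0.137, 0.141 and 0.0678, and leaving out WT mouse 3405 or 3406 gave 0.227 and 0.226. Without WT mouse 3396 it was 0.0482. The size of the difference moved less than its p, between 0.41 and 0.51 over all 13.

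Taken by region, the KO minus WT difference of Rps19 was 0.88 ± 0.18 in cerebellum (664 ± 110.5 against 361 ± 61.2, SD, n = 3; limma adjusted p = 0.0720, not past 0.05). In cortex the difference was 0.40 ± 0.18 (566 ± 86.4 against 426 ± 29.4; limma adjusted p = 0.469). In hippocampus it was 0.10 (499 ± 79.8 against 473 ± 133; limma adjusted p = 0.904). Neither single-tissue separation passed the threshold across all probe sets. Over 15 alternatives the cerebellar adjusted p ran from 0.0493, without WT mouse 3405, to 0.477, with the cerebellar arrays alone. The moderated F test for unequal KO effects between regions gave an adjusted p of 0.449 in limma, so a difference between regions in the Rps19 effect was not established.

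On the same arrays the median log2 signal of the other 25 genes was 10.48 ± 0.03 in KO cerebellum and 10.52 ± 0.01 in WT cerebellum (SD, n = 3). Rps19 minus this median was -1.12 ± 0.27 in KO cerebellum and -2.04 ± 0.25 in WT cerebellum. In cortex it was -1.34 ± 0.26 in KO and -1.87 ± 0.13 in WT, and in hippocampus -1.74 ± 0.30 in KO and -1.75 ± 0.54 in WT. Only the change of this gap between arrays can be read, since its size depends on the probes. The gap was narrower in every KO array than in any WT array in cerebellum and in cortex, and the hippocampal ranges, -2.08 to -1.53 in KO and -2.17 to -1.14 in WT, overlapped.

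These are whole-tissue samples, in which fewer cells of a type and less RNA per cell cannot be told apart, so other cell types were read beside the Rps19 values. Choroid plexus genes differed between cerebellar arrays: Folr1, Kl and Ttr, 3 measured of 8 listed, had higher means in KO, with a median difference of 1.76 and 0 past the threshold. Their summed signal was 1199, 338 and 1469 in KO cerebellum (3363, 3389, 3403) and 51.3, 103 and 1275 in WT cerebellum (3405, 3406, 3396). In KO and WT cortex the sums were 117 to 597 and 265 to 787, and in hippocampus 509 to 2179 and 1384 to 2204. The cerebellar groups overlapped through WT mouse 3396, and the part of choroid plexus in the Rps19 values was not tested. Myelin genes fell in KO hippocampus (3 of 10 measured) and cortex (7 of 10) and in the mean of regions (4 of 10), with 0 of 10 in cerebellum. Their summed signal was 3711 to 4734 in KO cortex against 7134 to 9206 in WT cortex, and 4541 to 5736 against 6753 to 10362 in hippocampus. In cerebellum it was 8268 to 8895 in KO and 9182 to 10559 in WT. Microglial genes had higher means in KO for 8 of 8 in hippocampus (median 0.19), 4 of 8 in cerebellum (0.03) and 8 of 8 in cortex (0.25). Medians of 9 astrocyte genes were -0.12 in hippocampus, -0.09 in cerebellum and -0.08 in cortex. In both lists 0 passed the threshold. The part of myelin, microglia and astrocytes in the ribosomal protein values was not tested.

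Sequence around the start of transcription was taken from RefSeq (GRCm38.p6), which gave a window for 28 of the 35 genes. The windows below run from 40 bases before the start to 20 bases from it, 5′ to 3′ on the gene's strand, and capitals mark motif matches. Rps19 is shown as the gene that rose in KO, Rps28 and Rpl10a because they share its motif, and Rps27 and Rps3a1 as examples of the other motifs searched. They lie at chr7:24884552-24884611 (plus strand, Rps19), chr17:33824543-33824602 (minus, Rps28), chr17:28328525-28328584 (plus, Rpl10a), chr3:90213629-90213688 (minus, Rps27) and chr3:86142649-86142708 (minus, Rps3a1).
Rps19: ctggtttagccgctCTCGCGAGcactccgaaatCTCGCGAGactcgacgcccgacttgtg
Rps28: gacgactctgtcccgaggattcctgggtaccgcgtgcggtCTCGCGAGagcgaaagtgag
Rpl10a: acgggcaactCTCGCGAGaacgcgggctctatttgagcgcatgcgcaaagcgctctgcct
Rps27: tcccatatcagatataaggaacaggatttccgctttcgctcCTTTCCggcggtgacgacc
Rps3a1: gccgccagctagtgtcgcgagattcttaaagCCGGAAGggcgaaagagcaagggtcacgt

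Motifs were counted on both strands of the full 300-base windows, from 250 bases before the start to 50 after, with a gene counted once whatever its number of annotated starts. The palindrome CTCGCGAG occurred in 3 of 28 genes (10.7%; Rpl10a, Rps19 and Rps28), against 1.04% of 27025 genes. CCGGAAG, the core bound by ETS-family factors, occurred in 12 of 28 (42.9%) against 9.93%. CTTTCC, a pyrimidine run of the kind that opens TOP mRNAs, occurred in 17 of 28 (60.7%) against 29.3%. Since a match could lie anywhere in the window and on either strand, this is no count of TOP starts. The end of CTTTCC can overlap the beginning of CCGGAAG. These matches describe letters in a window and were not related to any signal.

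Apart from Rps19, the ribosomal protein genes showed no difference between KO and WT that passed the threshold. In hippocampus 0 of 34 probe sets passed (0.119% of all 8382 did), in cerebellum 0 (0.0358% of all) and in cortex 0 (0.286% of all). At an unadjusted p under 0.05, limma gave 2 of 34 in hippocampus (5.88%, against 8.41% of all probe sets), 4 in cerebellum (11.8% against 12.1%) and 7 in cortex (20.6% against 10.2%). For the mean of regions it gave 6 (17.6% against 10.1%). These counts include Rps19 in cerebellum, in cortex and in the mean of regions. The genotype by region interaction called 0 of 34, against 0.0477% of all, and its lowest p values belonged to Rpl37a (0.0333) and Rps19.

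The medians of the family lay near 0. The median difference over 26 genes was 0.01 in hippocampus (14 above 0; 0.02 for all probe sets), turning to -0.08 under median scaling. In cerebellum it was 0.04 (17 above 0; 0.03 for all), turning to -0.04 under median scaling. In cortex it was -0.05 (8 above 0; 0.00 for all), and it stayed below 0 under both other scalings. For the mean of regions it was -0.01 (11 above 0; 0.02 for all), turning to 0.04 under quantile normalization. In hippocampus 23 of the 26 genes lay within 0.25 of 0, in cerebellum 21 and in cortex 20. By subunit, in the mean of regions, the median was -0.01 for 12 large-subunit genes and -0.01 for 14 small-subunit genes. When the 35 tested probe sets with several symbols were added, the 69 probe sets gave 1 call in the mean of regions, again Rps19, and 0 in each region.

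**Figure D2:**
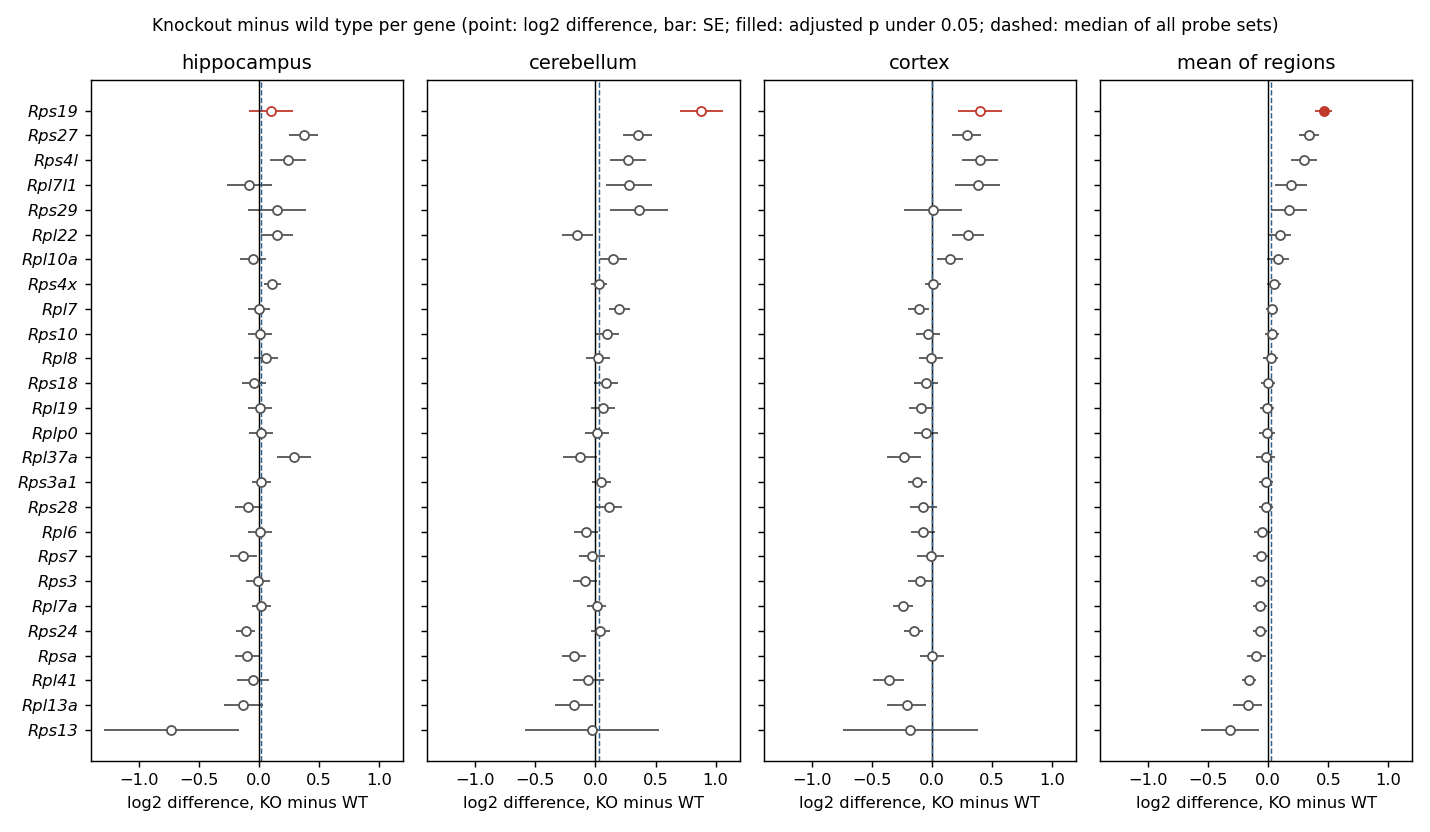
Log2 difference of KO minus WT for the 26 tested ribosomal protein genes in hippocampus, cerebellum, cortex and the mean of regions, with limma's SE as a bar and Rps19 in red. Filled points passed an adjusted p of 0.05, and the dashed line is the median of all probe sets. Only Rps19 in the mean of regions is filled, and most other genes lie within 0.25 of 0.

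Rps27, a zinc-finger protein of the small subunit, came next to Rps19. In hippocampus its signal was 334, 269 and 281 in KO against 219, 227 and 234 in WT, and in cortex 339, 319 and 313 against 262, 271 and 263. In cerebellum it was 275, 303 and 248 against 191, 197 and 263. KO and WT did not overlap in hippocampus and cortex and overlapped in cerebellum, where WT mouse 3396 had a higher value than KO mouse 3403. The differences were 0.37 ± 0.12 in hippocampus, 0.35 ± 0.12 in cerebellum and 0.29 ± 0.12 in cortex. None passed (limma adjusted p = 0.437, 0.252 and 0.431), nor did the mean of regions, at 0.34 ± 0.08 (adjusted p = 0.259, and 0.134 to 0.709 over its alternatives). In that mean Rps4l (0.30) and Rpl7l1 (0.19) followed. The lowest were Rps13 (-0.32), Rpl13a (-0.17), Rpl41 (-0.16) and Rpsa (-0.10), and none of these passed.

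Of the small-subunit genes, Rps4l, an Rps4x paralog, differed by 0.24 in hippocampus, 0.27 in cerebellum and 0.40 in cortex (limma adjusted p = 0.705, 0.506 and 0.332). Its cortical signals were 169, 137 and 146 in KO against 96.4, 128 and 117 in WT, without overlap. Rps29 differed by 0.36 in cerebellum with overlapping groups. Rps13 had the lowest difference in hippocampus, -0.73 ± 0.56, from a dim probe set with signals of 27.3 to 45.5 in KO and 34.4 to 90.4 in WT. Rpsa, the laminin receptor protein of the small subunit, differed by -0.18 in cerebellum (454, 453 and 493 in KO against 524, 514 and 551 in WT). Its cerebellar groups lay apart, but the difference did not pass (limma adjusted p = 0.491). Rps7 (-0.13) and Rps24 (-0.11) filled the low end in hippocampus, and they did not pass either.

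Of the large-subunit genes, Rpl37a had opposite differences in 2 tissues. In hippocampus its signal was 1724, 1604 and 1578 in KO against 1356, 1489 and 1178 in WT, a difference of 0.29 ± 0.14. In cortex it was 1345, 1353 and 1279 in KO against 1538, 1466 and 1658 in WT, a difference of -0.23. All KO arrays were above all WT arrays in hippocampus and below all of them in cortex. Neither difference passed (limma adjusted p = 0.590 and 0.605), and the interaction of genotype and region had an adjusted p of 0.420 in limma. Cerebellar signals overlapped, and the difference there was -0.13.

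Rpl41, which encodes a very short peptide, had a cortical signal of 6071, 4972 and 4669.9 in KO against 8160.1, 6412 and 5671 in WT. The difference was -0.36 ± 0.13, with overlapping groups (limma adjusted p = 0.326). Rpl7a in cortex was 1137, 1003 and 1149.6 in KO against 1175, 1326 and 1384 in WT. It differed by -0.24 ± 0.08 without overlap (limma adjusted p = 0.295). Rpl22, an RNA-binding protein of the large subunit, differed by 0.15 in hippocampus, -0.15 in cerebellum and 0.30 in cortex, and Rpl7l1, a paralog of Rpl7, by 0.28 in cerebellum and 0.38 in cortex. Rpl13a differed by -0.13, -0.18 and -0.21 in hippocampus, cerebellum and cortex. None of these passed. The dim second probe set of Rpl19 read 17.9, 17.3 and 44.1 in KO cortex against 108, 86.3 and 54.8 in WT cortex, without overlap. Its difference, -1.74 ± 0.52 (limma adjusted p = 0.231), was not shared by the bright Rpl19 probe set, at -0.09 ± 0.10. In cortex the ratio of 3' to 5' probe signal for Gapdh, a sign of RNA integrity, was 0.804 ± 0.00773 in KO and 0.903 ± 0.0202 in WT (n = 3), and its part in the cortical values was not tested.

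**Figure D3:**
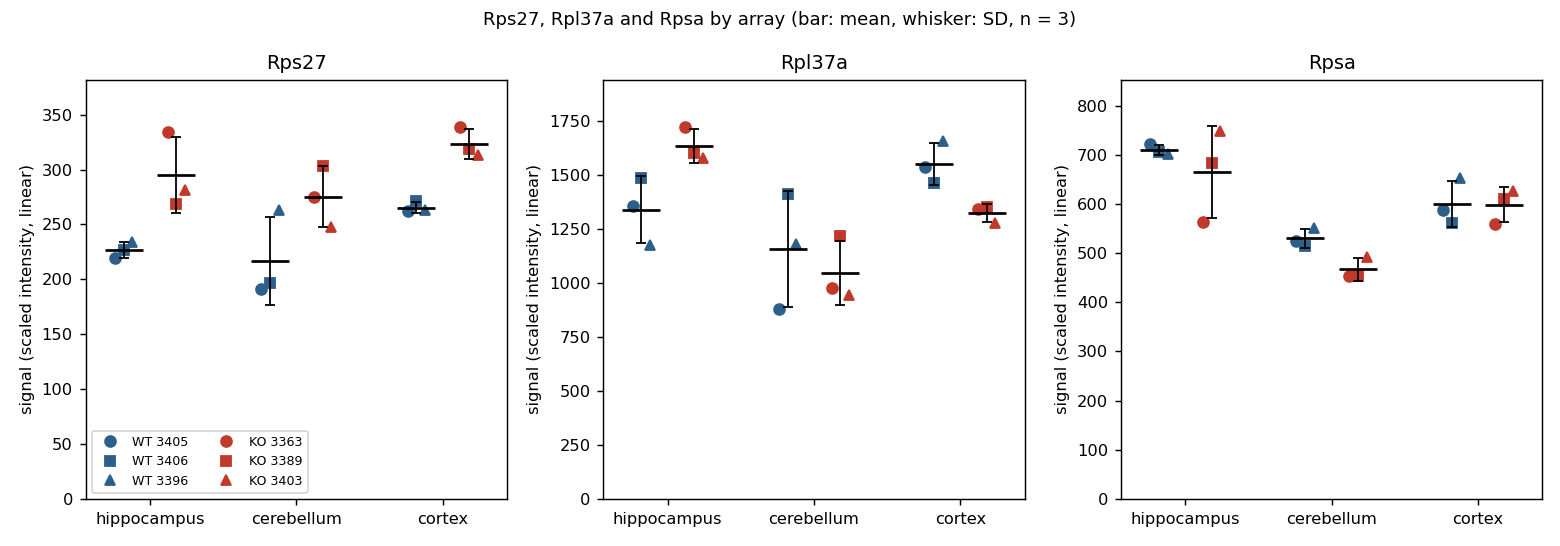
Signal (scaled intensity, linear axis) of Rps27, Rpl37a and Rpsa on each of the 18 arrays by region, WT in blue and KO in red, with the mean as a bar and the SD as a whisker (n = 3). Rps27 is higher in all KO than in all WT arrays of hippocampus and cortex, Rpl37a is higher in KO hippocampus and lower in KO cortex, and Rpsa is lowest in cerebellum.

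Between regions the differences were more numerous, in ribosomal protein genes as in the rest of the array. Contrasts were averaged over both genotypes, with each animal as its own block. Cerebellum against hippocampus gave 12 of 34 probe sets lower in cerebellum (35.3%, where 27.6% of all probe sets were) and 0 higher (23.3% of all), while median scaling gave 4 lower and 2 higher. Cerebellum against cortex gave 13 lower (38.2%, against 30.9% of all) and 6 higher (17.6%, against 25.1% of all). Median scaling turned that split to 5 lower and 10 higher, and quantile normalization gave 7 lower and 8 higher. Median scaling raised the difference of all probe sets by a median of 0.12 in the first contrast and 0.13 in the second. Hippocampus against cortex gave 8 higher in hippocampus (23.5%, against 13.5% of all) and 0 higher in cortex (13.0% of all). Median scaling gave 7 and 0, where all probe sets gave 1147 and 991. The called counts include dim probe sets of Rps29 (both cerebellar contrasts) and Rps4x (hippocampus against cortex). These passed the filter only through arrays of regions where they were higher.

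The family medians were small. The median over 26 genes was -0.08 for cerebellum minus hippocampus (-0.06 for all probe sets) and turned to 0.03 under median scaling. It was -0.01 for cerebellum minus cortex (-0.06 for all) and turned to 0.11 under median scaling and 0.05 under quantile normalization. It was 0.04 for hippocampus minus cortex (0.00 for all), and above 0 under both other scalings. Most called differences were small: 8 of 12, 15 of 19 and 6 of 8 were under 0.5. The ratio of 3' to 5' probe signal for beta-actin was 1.77 ± 0.118 in cortex, 1.32 ± 0.128 in hippocampus and 1.32 ± 0.0773 in cerebellum (SD, n = 6), and its part in the contrasts with cortex was not tested. Microglial genes were lower in cerebellum than in hippocampus for 8 of 8 measured, choroid plexus genes lower for 3 of 3 (median -1.93), and myelin genes higher for 7 of 10 and lower for 1. Against cortex, microglial genes were lower in cerebellum for 7 of 8 and myelin genes higher for 8 of 10. In hippocampus against cortex, choroid plexus genes were higher for 3 of 3 (median 1.92), myelin genes for 5 of 10 and microglial genes for 1 of 8. Summed microglial signal was 929 to 1193 in cerebellum over both genotypes' groups and 1887 to 2608 in hippocampus. The part of these cell types was not tested.

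Of the 13 probe sets lower in cerebellum than in cortex, 10 were among the 19 tested of the small subunit and 3 among the 15 of the large one, where 30.9% of all probe sets were lower. Median scaling gave 2 and 3 (1866 of all 8382 probe sets were lower), and quantile normalization 4 and 3 (2228 of all). The median was -0.12 over 14 small-subunit genes, which became 0.01 under median scaling, and 0.06 over 12 large-subunit genes, which became 0.19 under median scaling and 0.14 under quantile normalization. Rpsa had the lowest adjusted p of the family in these contrasts. Its signal ran from 453 to 551 (median 504) in cerebellum, from 563 to 749 (median 704) in hippocampus and from 559 to 652 (median 598) in cortex. The cerebellar range lay below both others. Rpsa was lower in cerebellum by 0.46 ± 0.06 than in hippocampus, in 6 of 6 animals (limma adjusted p = 2.47e-05), and by 0.27 ± 0.06 than in cortex, in 6 of 6 animals (adjusted p = 0.00232). The first of these calls held under all 15 alternatives. Rpsa was also higher in hippocampus than in cortex, by 0.19 ± 0.06 (adjusted p = 0.0331).

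Rps3a1, a small-subunit gene, ran from 1866 to 2129 (median 1977) in cerebellum, 2285 to 2415 (median 2365) in hippocampus and 2172 to 2558 (median 2479) in cortex. Its cerebellar values lay below all others. It was lower in cerebellum by 0.25 ± 0.05 than in hippocampus and by 0.28 ± 0.05 than in cortex (limma adjusted p = 0.00164 and 0.000556). The first call was lost under median scaling and in WT arrays alone (adjusted p = 0.0735 and 0.0705, against 0.000895 to 0.0119 under its other alternatives). Rps29 was lower in cerebellum in its dim second probe set, with a median signal of 7.28 there, under the floor of 9.46, against 32.6 in hippocampus and 36.1 in cortex. Those differences, -1.83 ± 0.31 and -1.63 ± 0.31 (adjusted p = 0.000228 and 0.000531), depend on the floor. That probe set passed the filter only through hippocampal and cortical arrays, where it was high. The brighter Rps29 probe set gave -0.36 against hippocampus (adjusted p = 0.0709) and -0.40 against cortex (adjusted p = 0.0438). The latter held under 4 of 14 alternatives, with adjusted p up to 0.164.

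Among large-subunit genes, Rpl37a ran from 879 to 1414 (median 1081) in cerebellum, 1178 to 1724 (median 1533) in hippocampus and 1279 to 1658 (median 1409.5) in cortex. It was lower in cerebellum by 0.44 ± 0.09 than in hippocampus and by 0.40 ± 0.09 than in cortex, with overlapping ranges (limma adjusted p = 0.00125 and 0.00233). Within WT animals the first difference was not called (adjusted p = 0.286, the highest of its alternatives, which began at 0.00103). Rpl41 was lower in cerebellum than in cortex, 3591 to 4481 against 4669.9 to 8160.1, by 0.51 ± 0.10 and without overlap (limma adjusted p = 0.000695). It held under all 15 alternatives, with differences from -0.66 to -0.25. The Rpl41 probe set carries the _f_at suffix of shared or incomplete probes.

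In the other direction, Rpl7a was higher in cerebellum, 1366 to 1480.4 (median 1431), than in cortex, 1003 to 1384 (median 1162), by 0.27 ± 0.06 (limma adjusted p = 0.00200). It was also higher in hippocampus than in cortex, by 0.24 ± 0.06 (adjusted p = 0.0106). Rps10 followed the same order, higher than in cortex by 0.24 ± 0.07 in cerebellum and 0.22 ± 0.07 in hippocampus (adjusted p = 0.0111 and 0.0367). Within WT animals these Rpl7a and Rps10 calls were lost, with adjusted p from 0.241 to 0.581. The Rps10 call for hippocampus against cortex held under only 6 of 15 alternatives, with adjusted p from 0.0206 to 0.300. Rpl13a and Rplp0, higher in cerebellum than in cortex by 0.25 and 0.17, were also called, but under only 9 and 8 of 15 alternatives, with adjusted p up to 0.178 and 0.341. The other calls of that direction were the Rpl22 and Rps4l probe sets described next.

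**Figure D4:**
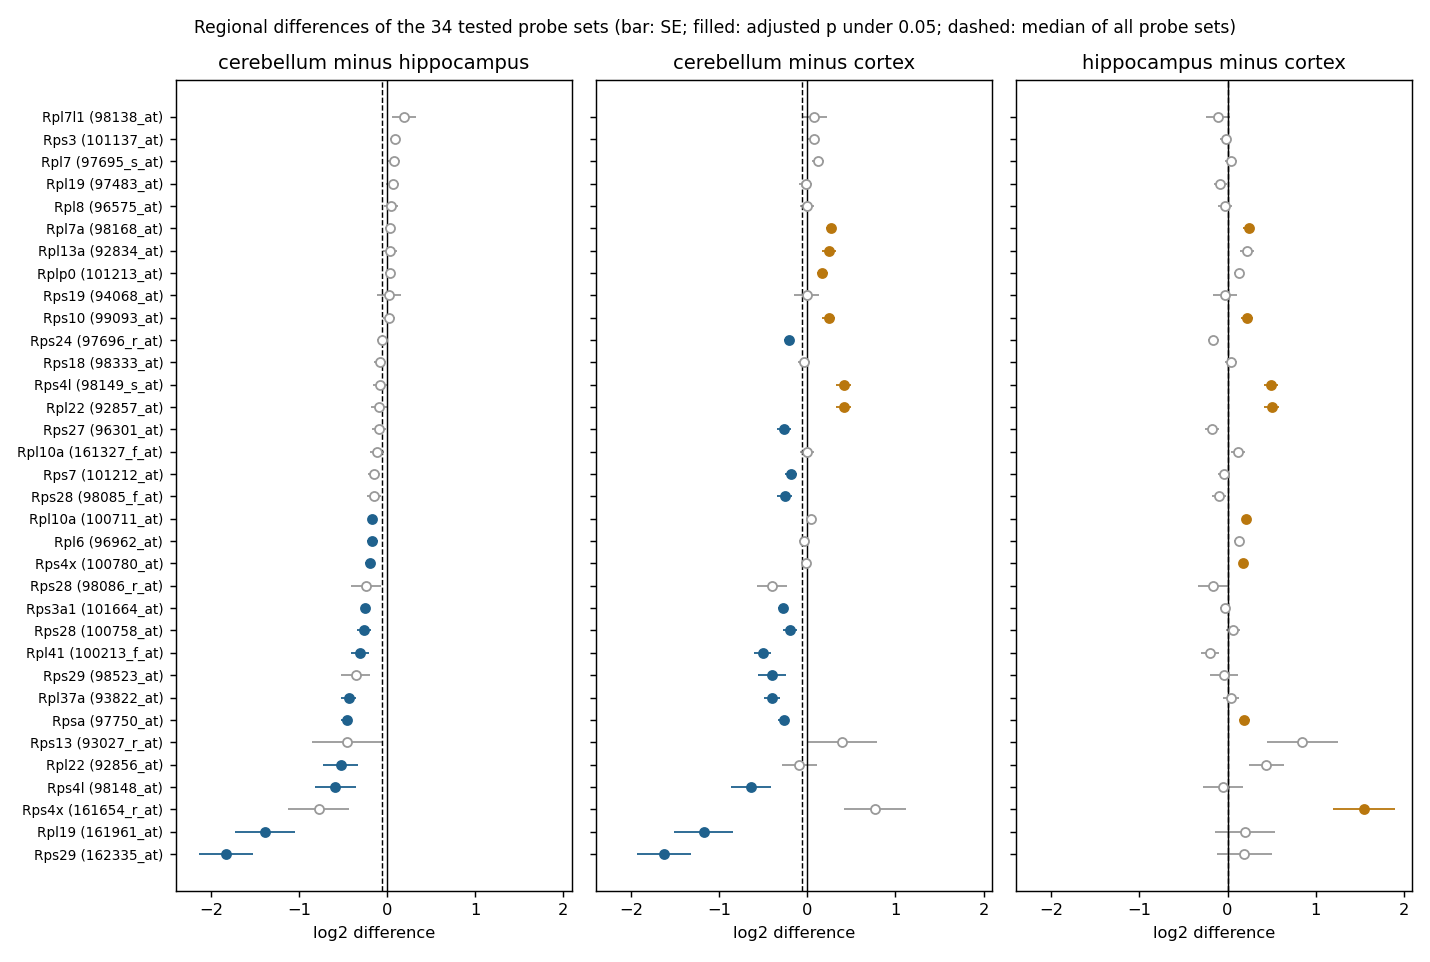
Log2 differences between regions for the 34 tested ribosomal protein probe sets, averaged over both genotypes, with limma's SE as a bar. Filled points passed an adjusted p of 0.05 (blue lower, ochre higher), and the dashed line is the median of all probe sets. Most filled points lie within 0.5 of 0. The largest differences, -1.83 for Rps29 and 1.55 for Rps4x, come from dim probe sets. These passed the filter only through arrays of regions where they were higher.

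Probe sets of the same gene did not always give the same result. Of the 7 genes with more than 1 tested probe set, Rpl19, Rpl22 and Rps4l had a called difference whose sign another probe set did not share. Rps4l was higher in cerebellum than in cortex in its brighter probe set (147 to 226 against 96.4 to 169; 0.41 ± 0.08, limma adjusted p = 0.000802) and lower in its dimmer one (12.3 to 34.3 against 18.7 to 53.7; -0.64 ± 0.23, adjusted p = 0.0261). Both passed, in opposite directions. The brighter is an _s_at probe set, with shared or incomplete probes, and the dimmer is not. The brighter call held under 15 of 15 alternatives, and the dimmer under 7 of 14, with adjusted p up to 0.239. The dimmer was also called lower in cerebellum than in hippocampus (-0.59 ± 0.23, limma adjusted p = 0.0412), under 5 of 14 alternatives. For hippocampus minus cortex the brighter gave a called 0.49 ± 0.08 (limma adjusted p = 0.000659) and the dimmer -0.05. Rpl22 was higher in cerebellum and in hippocampus than in cortex in its brighter probe set (0.41 ± 0.09 and 0.50 ± 0.09), where signals were 176 to 239.9, 193 to 249.7 and 124 to 181. Its dimmer probe set gave -0.09 and 0.44 for these contrasts, not called, and a called -0.53 for cerebellum minus hippocampus (adjusted p = 0.0411), which held under 5 of 14 alternatives, with adjusted p up to 0.165. Rpl19 was called lower in cerebellum than in hippocampus only in a dim probe set (-1.39 ± 0.34), while its bright one gave 0.06. Against cortex the dim one was also called lower (-1.18 ± 0.34, limma adjusted p = 0.00807), while the bright one gave -0.02. The dim Rps4x probe set was higher in hippocampus than in cortex by 1.55 ± 0.35, with signals of 31.1 to 48.2 against 7.03 to 31.6. As 2 cortical arrays lay under the floor, its size depends on the floor, and it ran from 0.92 to 1.86 over the alternatives. This dim probe set passed the filter only through hippocampal arrays, so it was tested because it was high there. The bright Rps4x probe set was higher by 0.18 ± 0.05. Rpl10a, in its brighter probe set, was higher in hippocampus than in cortex by 0.21 ± 0.05 (adjusted p = 0.0125, held under 11 of 15 alternatives).

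Rps19 itself did not differ between regions past the threshold: the differences were 0.02 for cerebellum minus hippocampus, -0.01 for cerebellum minus cortex and -0.03 for hippocampus minus cortex (limma adjusted p = 0.904, 0.954 and 0.892). These contrasts average over KO and WT, whose cerebellar values lay on either side.

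The probe sets with several symbols were read separately. Added to the 34, the 35 tested ones gave 31 of 69 lower in cerebellum than in hippocampus (44.9%, against 27.6% of all probe sets). There was 1 higher (1.45%, against 23.3% of all). Median scaling gave 16 lower and 4 higher, where all 8382 probe sets gave 1677 and 2561. Against cortex they gave 34 of 69 lower (49.3%, against 30.9% of all) and 9 higher (13.0%, against 25.1% of all). Median scaling gave 15 lower and 13 higher (1866 and 2772 of all). Quantile normalization gave 22 lower and 11 higher (2228 and 2251 of all). Hippocampus against cortex gave 9 of 69 higher (13.0%, against 13.5% of all) and 2 lower (2.90%, against 13.0% of all). Of the 35 alone, 1 was higher (2.86%) and 2 lower (5.71%) there. The median of these 35 alone was -0.23 in both contrasts of cerebellum, and -0.11 against hippocampus and -0.10 against cortex under median scaling. They were added after the data had been seen, and each can read more than 1 gene.

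Other genes of protein synthesis were read from lists. Of 58 mitochondrial ribosomal protein genes, whose products form the separate ribosome of mitochondria, 0 were called between KO and WT in any region or in the mean of regions. Of all probe sets, 0.0358% to 0.286% were called in these comparisons. Between regions, 25 were higher and 3 lower in cerebellum than in hippocampus (median 0.17), where 23.3% of all probe sets were higher and 27.6% lower. Median scaling gave 30 and 1, where all 8382 probe sets gave 2561 and 1677. Against cortex, 20 were higher and 3 lower (median 0.17), where 25.1% of all were higher and 30.9% lower. Median scaling gave 31 and 1 (2772 and 1866 of all). Both medians stayed above 0 under median scaling and quantile normalization. Mrpl21 was higher in cerebellum than in hippocampus by 0.77 ± 0.10 and Mrps28 by 0.81 ± 0.11 (limma adjusted p = 1.2e-05 and 2.33e-05). Of 37 ribosome biogenesis genes, 0 were called between KO and WT. In cerebellum 5 were higher and 10 lower than in cortex, where 25.1% and 30.9% of all probe sets were. Median scaling gave 13 higher and 6 lower (2772 and 1866 of all). Eif6, which keeps the subunits from joining early, was higher in cerebellum than in cortex by 0.70 ± 0.09, and Nhp2, a protein of the pseudouridine-forming box H/ACA particles, lower by 0.61 ± 0.09.

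Other genes whose mRNAs carry a TOP motif, 16 measured, had 0 called between KO and WT. In cerebellum 6 were lower and 3 higher than in hippocampus, where 27.6% and 23.3% of all probe sets were. Median scaling gave 3 and 5 (1677 and 2561 of all), and quantile normalization 3 and 3 (1986 and 2064 of all). The called genes included the poly(A)-binding protein gene Pabpc1, lower by 0.50 ± 0.07, and Btf3, of the nascent chain complex, higher by 0.35 ± 0.06 (limma adjusted p = 4.95e-05 and 0.000271). Of 7 elongation factors, 0 were called between KO and WT. In cerebellum 2 were higher and 2 lower than in cortex, where 25.1% and 30.9% of all probe sets were. Median scaling gave 2 and 1 (2772 and 1866 of all). The mitochondrial factor gene Tufm was higher by 0.53 ± 0.09 and Eef2 by 0.21 ± 0.07. Eef1b2 differed by -1.12 ± 0.31 and Eef1a1 by -0.23 ± 0.07. Of 8 S6 kinase and mTOR pathway genes, 0 were called between KO and WT. Eif4ebp1, a repressor of translation that mTOR phosphorylates, had the lowest p of these, with a difference of 1.92 ± 0.40 in hippocampus (adjusted p = 0.0914) and 1.21 ± 0.25 in the mean of regions (adjusted p = 0.153). Of 7 p53 target genes, which respond when ribosome assembly is disturbed, 0 were called between KO and WT, and Cdkn1a differed by 0.70 ± 0.29 in hippocampus (adjusted p = 0.546).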

How the data were processed

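RNA of hippocampus, cerebellum and cortex of 3 KO and 3 WT mice was measured on 18 arrays, in 6 groups of 3. The deposited values are intensity on a linear scale, which the authors had scaled to one 2% trimmed mean (150.07 to 150.08 on each array); the software that did so was not given in the sources used here. Median signal was 53.5 to 64.8 per array, and the number of arrays limits the precision. Members and gene lists were chosen with earlier results of these data known.

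After 66 control probe sets had been dropped from the 12488, a floor was set at the 20th percentile of all values (9.46) before log2 was taken. The 40th percentile filter left 8382. Symbols came from the platform annotation, with 1 symbol for 10855 probe sets, several for 396 and none for 1237. All 35 member symbols were found in the reference gene table (GRCm38.p6).

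KO and WT were compared per region with limma 3.58.1 (R 4.3.3) on 6 group means (12 residual degrees of freedom, intensity trend). The mean of regions used 1 log2 mean per animal (4 degrees of freedom). Regions and the genotype by region interaction were fitted with the animal as a fixed block (8 degrees of freedom), because the titles give the 3 regions of a mouse its number. Deviations of arrays of 1 animal correlated with a median of 0.135 (-0.084 to 0.195), against -0.018 between animals. Tests were two-sided, with Benjamini-Hochberg adjustment over all kept probe sets and a threshold of 0.05. An exact permutation test of 3 against 3 cannot give a p under 0.1. The fits were tested on simulated data.

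Genes were named by rule. These were Rps19 throughout, called members and the 4 highest and 4 lowest genes per KO comparison, the 6 largest called regional differences per direction, the 2 of lowest p in the interaction, the 5 brightest and 5 dimmest genes, genes whose probe sets disagreed, and up to 4 called genes per list. Rps3a1, the dim Rpl19 probe set in KO cortex and other values outside that rule were named after they were seen. Alternatives were median scaling and quantile normalization, dropping the floor or adding 16 instead, dropping the filter or moving it to the 60th percentile, dropping the intensity trend, leaving out each animal, the block, a region's own arrays, WT arrays alone, and the members with shared probe sets added or removed.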

Additional observations from a re-analysis of the deposited data

Results flagged for a closer look

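Rpl37a was higher in KO hippocampus (0.29 on the log2 scale) and lower in KO cortex (-0.23), and in each of the 2 tissues every KO array lay on one side of every WT array. The difference between the tissues was tested with the interaction of genotype and region, over all 3 regions, which gave an adjusted p of 0.420 in limma. It did not pass the threshold. Separation of 3 against 3 arrays cannot give an exact permutation p under 0.1, and its share over all probe sets was not counted.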

How the results depend on the processing

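Scaling changed the regional splits. Median scaling gave 2 higher and 4 lower in cerebellum than in hippocampus (median 0.03) and 10 higher and 5 lower than in cortex (median 0.11), and quantile normalization gave 7 lower than in cortex. All probe sets moved the same way under median scaling, to 2561 higher and 1677 lower and to 2772 higher and 1866 lower. The KO minus WT median became -0.04 in cerebellum and -0.06 in the mean of regions under median scaling, and 0.04 in the mean of regions under quantile normalization. Rps19 in the mean of regions was no longer called, leaving 0 members higher, under median scaling, with no filter and with no intensity trend. With 1 animal left out, members called higher in KO numbered 0 to 1 in the mean of regions and 0 to 1 in cerebellum (median 0.00 to 0.08). Members lower in cerebellum then numbered 7 to 14 against hippocampus and 6 to 14 against cortex, and members higher in hippocampus than in cortex 3 to 7. WT arrays alone gave 2 lower in cerebellum than in hippocampus, 3 higher and 6 lower than in cortex, and 3 higher in hippocampus than in cortex, from fewer samples. With shared probe sets added, 31 were lower and 1 higher in cerebellum than in hippocampus, 34 lower than in cortex (median -0.16 over genes), and 2 lower in hippocampus than in cortex. No filter and the 60th percentile filter each gave 1 lower in hippocampus than in cortex, and no intensity trend gave 5 higher. Elsewhere the cause was not tested. With the animal as a random replicate block, members called in KO minus WT stayed at 0 in each region (Rps19 in cerebellum, adjusted p = 0.0837). Without the replicate block 9 were lower in cerebellum than in hippocampus, and 12 lower and 5 higher than in cortex. No result of a named gene changed direction while called. Dim probe sets limit Rps29, Rps13 and Rps4l, whose signals lie near the floor or far below the others.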
